A study of Mus musculus with 4 samples.

Results

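The fosB-null mouse embryonic stem (ES) cells were compared with wild-type ES cells on 2 cDNA microarrays of 2 colours, out of 4 arrays in the series, and all 9480 probes of both arrays were used. ES cells are pluripotent cells of the early embryo. The arrays form a dye swap. By the dye names in the array titles, fosB-null RNA was labelled with Cy3 on replicate 1 and with Cy5 on replicate 2. Wild-type RNA was in the other dye. The other 2 arrays compare fosBd/d ES cells, whose alleles encode only ΔFosB, with wild type. Per the series title all cells had 72 h without serum and then 4 h of serum, and per the labels no feeder cells were present. The labels give neither the kind of fosB-null allele nor the number of clones, and leave unsaid whether separate cultures or RNA extracts went onto the swapped arrays. The p-values then cover only variation from array to array, which can be technical.

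FosB is a member of the Fos family, whose proteins pair with Jun or ATF proteins to form the transcription factor AP-1. AP-1 binds short DNA elements and its genes are induced within minutes to hours when starved cells receive serum. ΔFosB is a truncated form that lacks the C-terminal part of FosB. The comparison asks how RNA levels differ from wild type in cells without FosB at a late point of the serum response.

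All values are log2 ratios, taken from deposited log10 ratios, and a mean is given ± SD (n = 2 arrays). The direction of the fosB-null ratio is open. Exact zeros carry a minus sign on replicate 2, as multiplication by -1 leaves, so that array appears to have been turned to run the same way as replicate 1. Arrays with fosB-null and fosBd/d RNA in the same dye correlated at -0.463 for replicate 1 and -0.369 for replicate 2 across probes. Arrays with them in opposite dyes correlated at 0.336 and 0.326. With the turning undone the same-dye values were 0.463 and 0.369, and the opposite-dye values stayed the same. The part of the dyes in these values was not tested, and they leave no settled direction. By the dye names a positive fosB-null value means less RNA in the mutant, and by a mutant-over-wild-type convention it means more. The array titles also call Cy3 red and Cy5 green, the reverse of the usual colours of these dyes. Reading the channels by colour would reverse the reading by dye name. Genes are therefore placed on the positive or the negative side, and turning the sign would exchange the sides and every count given for them. The direction relative to fosBd/d is open too. By the dye names the positive side stands for more RNA in fosBd/d cells, so a gene on one side in both mutants would differ from wild type in opposite directions, and by a mutant-over-wild-type convention in the same direction. Values for fosBd/d are given side by side as deposited, and turning the fosB-null sign would turn equal signs into opposite ones and the reverse. In whole cultures, fewer cells of a type and less RNA per cell cannot be told apart.

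The targeted gene is not analysed here: 0 probes with a single listed gene carried the name Fosb, so the ratios hold no check of the genotype. Likewise 0 such probes carried the names Jun, Fosl1, Fosl2, Pou5f1, Nanog or Sox2, and ratios give no level by which the ES identity could be checked. Names came from the 6566 probes with a single gene, which covered 6025 genes. The SD over probes was 0.436 on replicate 1 and 0.542 on replicate 2, against 0.824 and 0.652 on the fosBd/d arrays. The value was listed at exactly 0 for 478 and 551 probes, and 715 probes were at 0 on either array.

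The arrays of the swap disagreed in sign more often than they agreed. A total of 3564 probes (37.6%) had the same sign on both, 1767 positive and 1797 negative, and 5201 (54.9%) had opposite signs. Across probes the arrays correlated at -0.318 (Pearson) and -0.262 (Spearman). These are correlations over probes of arrays that share probe sequences and dyes, and are given as a description. The deviation of each array from the mean of both had an SD of 0.398 over probes, larger than the SD of 0.289 of the mean itself. The linear model in limma, with a dye term and all 4 arrays, called 0 of 9480 probes (0%) at a Benjamini-Hochberg adjusted p under 0.05, and the smallest adjusted p was 0.651. At an unadjusted p under 0.05 there were 578 probes (6.1%), where 474 would be expected by chance, with 280 positive (2.95%) and 298 negative (3.14%). That number was below 474 in some other fits: 179 without the dye term and 47 with the dye coded by the labels. It was 176 with the fosB-null arrays alone and 106 with the turning of replicate 2 undone. With any 1 array left out it was below 474 too. It stayed above chance in the remaining fits, at 706 with columns scaled to a common median absolute deviation. It was 515 of 7998 with probes at 0 on any array left out (400 by chance) and 411 of 6025 per gene (301 by chance). For the dye term of the main limma fit, 2151 of 9480 probes had an unadjusted p under 0.05, and 0 passed adjustment. The genes below are therefore described by their values on each array, and none of them passed limma.

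By size, 23 of 9480 probes (0.243%) reached 2-fold with one sign on each array of the swap, 15 of them positive (0.158%) and 8 negative (0.0844%). With opposite signs, 142 probes reached 2-fold. Among the 6566 probes with a single gene the numbers were 18 (0.274%; 13 positive, 0.198%, and 5 negative, 0.0761%) and 13 with opposite signs, so 5 of the 23 had no single gene to name. Of the 142, 125 were negative on replicate 1 and positive on replicate 2. At 1.5-fold, 103 probes (1.09%) qualified, 55 positive (0.58%) and 48 negative (0.506%), and 77 of the 6566 (1.17%) among those with a single gene, 41 positive (0.624%) and 36 negative (0.548%), beside 157 with opposite signs.

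**Figure D1:**
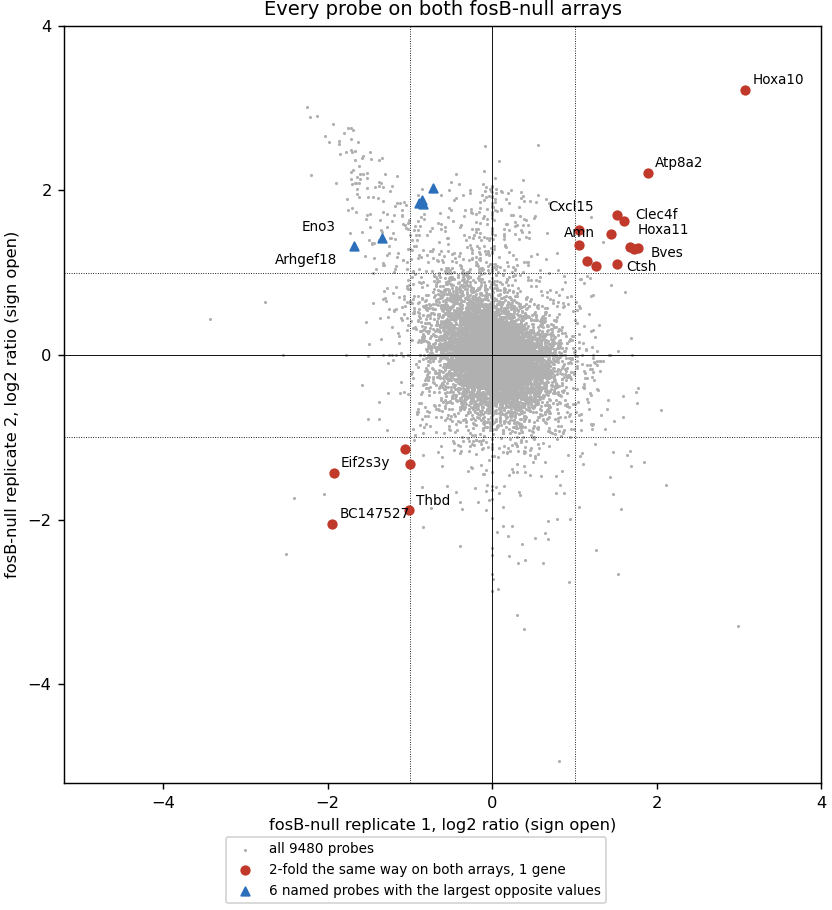
Log2 ratio of each of the 9480 probes on fosB-null replicate 1 (horizontal) and replicate 2 (vertical), with dotted lines at 2-fold. Red points are the 18 probes with a single gene past 2-fold with one sign on both and blue triangles are the 6 named probes with the largest opposite values; the cloud tilts toward the upper left, with an arm where replicate 1 is negative and replicate 2 is positive.

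The promoters of the posterior Hox genes Hoxa10 and Hoxa11 are shown because Hoxa10 had the highest mean and its neighbour Hoxa11 was also past 2-fold on the positive side. Both encode homeodomain transcription factors that pattern the posterior body axis, the limbs and the reproductive tract. Their start sites lie 4956 bases apart on the minus strand of chromosome 6. The sequences are the 250 bases before the start in RefSeq's annotation of GRCm38.p6, 5′ to 3′, and neither window holds TGAGTCA or TGACGTCA, the letters of the AP-1 site and the cyclic AMP response element (CRE), on either strand. The table lists a further Hoxa10 start, which is not shown.
Hoxa10, chr6:52240855-52241104, minus strand: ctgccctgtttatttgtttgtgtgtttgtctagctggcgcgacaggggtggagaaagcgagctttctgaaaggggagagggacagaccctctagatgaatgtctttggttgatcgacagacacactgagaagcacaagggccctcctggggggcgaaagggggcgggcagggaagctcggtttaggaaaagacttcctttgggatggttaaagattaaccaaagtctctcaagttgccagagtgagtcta
Hoxa11, chr6:52245811-52246060, minus strand: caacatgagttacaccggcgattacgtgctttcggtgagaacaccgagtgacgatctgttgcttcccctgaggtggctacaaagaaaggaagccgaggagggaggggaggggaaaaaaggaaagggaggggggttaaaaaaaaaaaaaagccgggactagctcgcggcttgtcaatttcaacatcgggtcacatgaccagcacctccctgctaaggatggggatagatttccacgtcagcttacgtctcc

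Hoxa10 stood at 3.07 on replicate 1 and 3.22 on replicate 2, a mean of 3.15 ± 0.11 or 8.87-fold. Hoxa11 stood at 1.68 and 1.31, with a mean of 1.49 ± 0.26 or 2.82-fold. No other Hox gene measured was at 1.5-fold on both arrays. Hoxb7 had 1.43 on replicate 1 and was listed at 0 on replicate 2, and Hoxb6 had -0.44 and 0.80. Hoxb13 lay on the negative side at -0.33 and -0.75. Hoxb1 (0.29 and 0.57) and Hoxc5 (0.62 and 0.23) were positive on both arrays. Hoxa2, Hoxa7, Hoxb4, Hoxd9, Hoxd10 and Hoxd12 had means between -0.11 and 0.28. Over the 13 Hox genes measured, 5 were positive and 2 negative on both arrays with a median of 0.18. Over all 6025 genes, 1172 (19.5%) were positive and 1322 (21.9%) negative on both, with a median of 0.00. On the fosBd/d arrays Hoxa10 read -2.49 and 0.00 and Hoxa11 read 0.10 and 1.03. Neither gene was past 1.5-fold with one sign on both of those arrays.

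The other probes past 2-fold on the positive side had varied roles. Atp8a2, a flippase that moves phospholipids across membranes, stood at 1.89 and 2.21 (mean 2.05 ± 0.23). Clec4f, a lectin of liver macrophages, stood at 1.60 and 1.63, and the chemokine Cxcl15, made by lung epithelium, at 1.51 and 1.71. Bves, a cyclic AMP-binding membrane protein, read 1.77 and 1.30 on this probe and -0.04 and 0.90 on its other probe. The fosB-null arrays were close for Atp8a2, Clec4f and Cxcl15, with SDs of at most 0.23, among probes chosen for agreeing in sign and size. The probes for Bves differed from each other. Mgrn1, a ubiquitin ligase, had 1.05 and 1.52. Zer1, a substrate receptor of another ubiquitin ligase, had 1.15 and 1.14, against -0.41 and 0.53 on its other probe. The transcript D7Ertd143e read 1.26 and 1.08. As deposited, the same probes on the fosBd/d arrays read -2.68 and -1.27 for Atp8a2, 0.00 and 1.06 for Clec4f and -3.94 and 0.48 for Cxcl15. They read -3.56 and -0.18 for Bves, -1.43 and 0.66 for Mgrn1 and -1.58 and 2.41 for Zer1. D7Ertd143e read -0.84 and -0.49 there.

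Some genes of the list for extraembryonic endoderm, which includes the absorptive visceral endoderm around the early embryo, were also at the positive end. The list was written with earlier results of these data known. Amn, which anchors the uptake receptor cubilin, stood at 1.44 and 1.48 (mean 1.46 ± 0.02), although its other probe read 0.61 and -0.39. Ctsh, the lysosomal protease cathepsin H, stood at 1.72 and 1.29. The trypsin inhibitor Spink1 had 1.52 and 1.10. Cited1, a transcriptional coactivator, had 1.05 and 1.34. Apart from Amn's other probe, these were named for passing 2-fold with one sign on both arrays. Their agreement in sign was set by that choice. Just under 2-fold, Ttr, the carrier of thyroid hormone and of retinol-binding protein, read 1.12 and 0.87. As deposited, the same probes read, on the fosBd/d arrays, 1.44 and 1.43 for Amn, 1.28 and 1.57 for Ctsh, 1.38 and 1.88 for Spink1, 1.67 and 1.07 for Cited1 and 1.01 and 1.59 for Ttr. Both mutants were set against wild type, so their values are not independent.

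Within the list of 27 extraembryonic endoderm genes the values lay on both sides, 9 positive (33.3%) and 8 negative (29.6%) on both arrays. Over all genes the shares were 19.5% and 21.9%. The median of the list was 0.10, with 0.17 on replicate 1 and -0.02 on replicate 2. Ctsh, Spink1, Cited1 and Ttr were the 4 genes at 1.5-fold, all on the positive side. Over all genes 35 of 6025 (0.581%) were at 1.5-fold on that side. The uptake receptor Lrp2 (0.33 and 0.62) and the water channel Aqp8 (0.30 and 0.75), chosen after their values were seen, were also positive. The transcription factors Sox17 (-0.32 and -0.17), Hnf4a (-0.26 and -0.04) and Snai1 (-0.46 and -0.36) were negative on both arrays, as were Krt19 at -0.78 and -0.30 and Plat at -0.23 and -0.48. These, and Gata6, were likewise picked once values were known. Gata6 had opposite signs at -0.27 and 0.64. Of the shorter list of endoderm markers, 15 of 20 were measured, 2 positive and 8 negative on both arrays, with means from -1.45 to 0.99. Of those 15, Ttr was the 1 gene at 1.5-fold on the positive side and Thbd the 1 on the negative side.

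On the negative side 5 probes passed 2-fold. BC147527, a transcript of chromosome 13, stood at -1.94 and -2.05, a mean of 3.99-fold. Eif2s3y, the Y-linked gene for a subunit of translation initiation factor eIF2, stood at -1.93 and -1.43 (mean -1.68 ± 0.35 or 3.20-fold). Thbd, thrombomodulin, an anticoagulant receptor of cell surfaces, had -1.01 and -1.88. Of these, Thbd had the widest gap between the arrays. The pancreatic phospholipase Pla2g1b had -1.0001 and -1.32. Crmp1, a cytoskeletal mediator of axon guidance signals, had -1.06 and -1.14. By the smaller of both absolute values Thbd (1.01) and Pla2g1b (1.00) lay just inside the threshold, and Plac1 and Stra6 (0.95 each) just outside.

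Eif2s3y was the 1 gene at 1.5-fold among 7 Y-linked genes, X-linked partners and Xist. The Y-linked Kdm5d, a histone demethylase, was listed at 0 on both arrays. Of 3 measured genes placed on the Y chromosome, 1 was negative and 1, outside this list, was positive on both arrays. Xist, the RNA that silences an X chromosome, read 0.10 and 0.27. Of the X-linked partners, Kdm6a read -0.02 and -0.23, Usp9x 0.04 and -0.03, Ddx3x 0.47 and -0.27, and Zfx 0.62 and -0.20. On the fosBd/d arrays Eif2s3y was at -0.70 and -1.50. Wild-type RNA was the other channel for both mutants and so enters both sets of values.

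**Figure D2:**
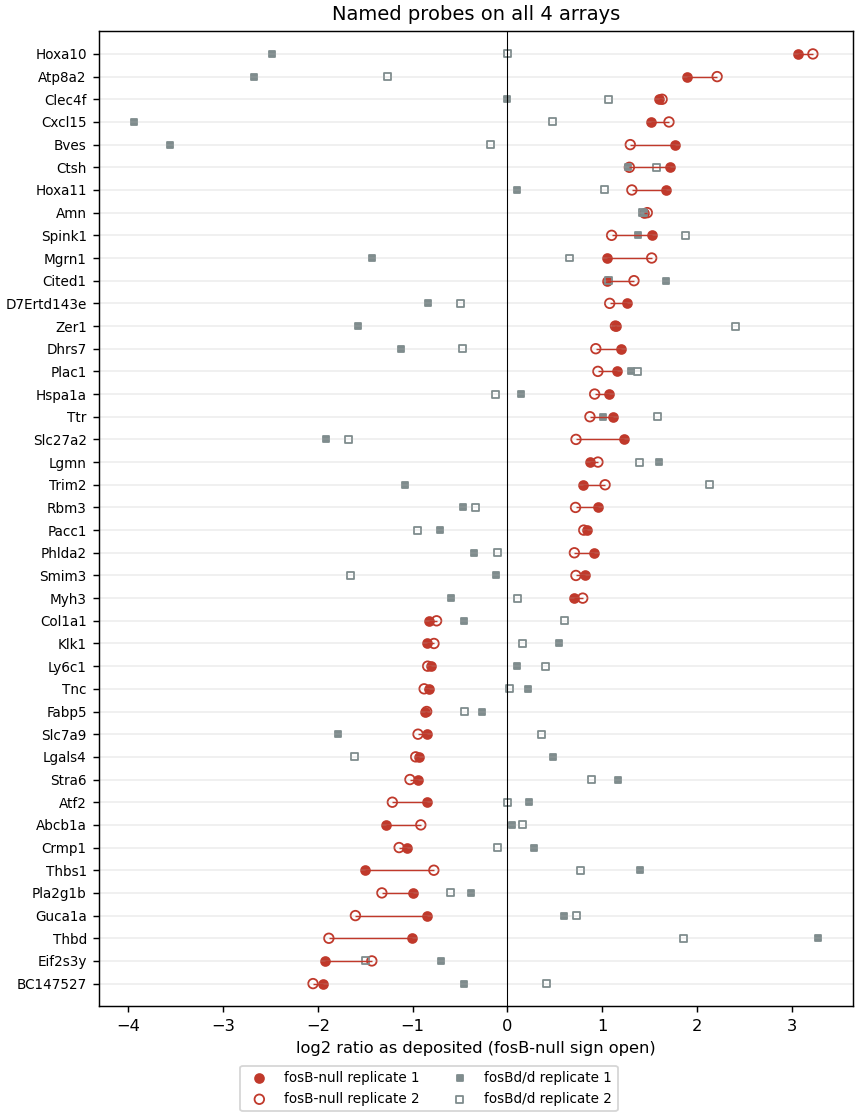
Log2 ratios of the 42 named probes that had one sign on both fosB-null arrays, ordered by mean; filled and open red circles joined by a line are fosB-null replicates 1 and 2 and grey squares are the fosBd/d arrays of the same probe. The line is short for Zer1 (1.15 and 1.14) and Fabp5 (-0.87 and -0.85) and long for Thbd and Guca1a, and the fosBd/d squares lie on either side of 0.

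The next 12 probes on the positive side spanned smaller absolute values from 0.95 down to 0.71. Plac1, an X-linked gene of trophoblast, stood at 1.16 and 0.95, and the imprinted gene Phlda2, which limits placental growth, at 0.91 and 0.71. Dhrs7, a short-chain dehydrogenase, had 1.19 and 0.93, and Slc27a2, which activates very long fatty acids, had 1.23 and 0.72. The lysosomal protease legumain, Lgmn, stood at 0.88 and 0.96. The inducible chaperone gene Hspa1a read 1.07 and 0.92 on this probe and -0.90 and 1.22 on the other. Rbm3, a cold-induced RNA-binding protein, read 0.96 and 0.72, with -0.02 and -0.08 on its other probe. The second probes of Hspa1a and Rbm3 thus did not repeat the first. The ubiquitin ligase Trim2 (0.80 and 1.03), the chloride channel Pacc1 (0.84 and 0.81), Smim3 (0.81 and 0.72) and the embryonic myosin heavy chain Myh3 (0.71 and 0.80) completed the 12 with Ttr.

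The next 12 on the negative side included transport and matrix genes. Abcb1a, a multidrug exporter, stood at -1.28 and -0.91, and the cystine transporter subunit Slc7a9 at -0.85 and -0.94. Stra6, the membrane receptor for retinol-binding protein, stood at -0.95 and -1.03. Fabp5, a fatty acid-binding protein, had -0.87 and -0.85. Among the 12 were the secreted matrix proteins thrombospondin, Thbs1 (-1.51 and -0.78), tenascin, Tnc (-0.83 and -0.88), and collagen I, Col1a1 (-0.82 and -0.75). The photoreceptor cyclase activator Guca1a (-0.85 and -1.60), the galectin Lgals4 (-0.94 and -0.97), the surface protein Ly6c1 (-0.81 and -0.84) and the kallikrein Klk1 (-0.85 and -0.77) were the others, with Atf2. The limma adjusted p of all 48 probes named here by size or disagreement was between 0.651 and 0.970.

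Among AP-1 subunits and their partners, Atf2 lay farthest from 0. Atf2, which pairs with Jun proteins, stood at -0.85 and -1.21 (mean -1.03 ± 0.26 or 2.04-fold), and read 0.23 and 0.00 on the fosBd/d arrays. Of the Fos and Jun genes measured, Fos was at -0.10 and -0.76, Junb at 0.17 and 0.29, and Jund at -0.10 and 0.08. Their means, -0.43 ± 0.46, 0.23 ± 0.08 and -0.01 ± 0.13, were small beside that of Atf2. Creb1, which binds the CRE, stood at 0.34 and 0.33, and Atf4, a regulator of the stress response, at 0.23 and 0.43. The basic leucine zipper genes Maff (-0.02 and -0.62), Crem (-0.03 and -0.37), Maf (0.37 and -0.27), Nfe2 (-0.28 and 0.01), Nfe2l1 (-0.58 and 0.59) and Atf6 (0.10 and -0.08) had means from -0.32 to 0.05. Over the 12 genes, 3 were positive and 4 negative on both arrays, and the median was -0.01.

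Genes of the serum response had a median near that of all genes. Over 26 early response genes the median was -0.02, beside 0.00 over all 6025 genes. Of the 26, 4 (15.4%) were positive and 6 (23.1%) negative on both arrays, with 0 at 1.5-fold. Over all genes 19.5% were positive and 21.9% negative on both arrays, and 1.15% were at 1.5-fold. The secreted matrix protein Ccn1 had -0.40 and -0.31, the GTPase Rhob -0.21 and -0.70, the nuclear receptor Nr4a2 -0.47 and -0.18, and the inhibitor of differentiation Id1 0.34 and 0.31. On the fosBd/d arrays Ccn1 read 1.38 and 1.52 and Rhob 0.78 and 1.49. In the MAP kinase cascade, which carries growth factor signals to AP-1, 5 of 21 genes were positive and 6 negative (median -0.01). The median of that cascade was 0.03 on replicate 1 and -0.09 on replicate 2. Its p38-family kinase Mapk13 was the 1 gene at 1.5-fold, at -0.92 and -0.70, and Map3k1 stood at 0.42 and 0.57, the phosphatase Dusp4 at 0.49 and 0.34 and the kinase Map2k6 at -0.52 and -0.31.

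Letters of the AP-1 site were looked for in the same 250-base windows of genes at 1.5-fold on both arrays. By the mean of a gene's probes there were 69 such genes (1.15%), 35 positive (0.581%) and 34 negative (0.564%), and 51 of them (73.9%) had a promoter in the RefSeq table. That is under 80%, so no comparison of shares can be drawn. Of the 51, 2 held TGAGTCA on either strand (3.92%), Palld and Trim2, beside 217 of 4782 array genes with a promoter (4.54%) and 1395 of 27025 in the whole table (5.16%). The CRE was in 0 of the 51, 117 of the 4782 (2.45%) and 478 of the 27025 (1.77%). Neither motif contains the other. Palld, which encodes an actin-bundling protein and was picked for the motif after the search, stood at -0.63 and -0.75, on the opposite side from Trim2. Both windows are printed with the match in capitals. The match begins 54 bases before the start in Palld and 77 before it, on the other strand, in Trim2.
Palld, chr8:61591140-61591389, minus strand: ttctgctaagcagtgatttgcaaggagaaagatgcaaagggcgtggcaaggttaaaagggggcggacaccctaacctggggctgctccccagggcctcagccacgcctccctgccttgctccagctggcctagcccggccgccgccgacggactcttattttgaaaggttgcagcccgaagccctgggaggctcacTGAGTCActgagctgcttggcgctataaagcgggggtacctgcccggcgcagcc
Trim2, chr3:84220878-84221127, minus strand: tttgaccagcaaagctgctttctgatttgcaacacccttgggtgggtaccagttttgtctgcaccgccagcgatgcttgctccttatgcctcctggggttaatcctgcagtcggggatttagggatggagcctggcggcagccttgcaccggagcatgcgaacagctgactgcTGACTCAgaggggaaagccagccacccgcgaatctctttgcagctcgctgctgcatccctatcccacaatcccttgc

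In the lysosomal list, written with earlier results of these data known, most genes were on the positive side. Over all genes 19.5% were positive and 21.9% negative on both arrays. Of 27 measured, 15 (55.6%) were positive and 1 (3.70%) negative on both arrays, and the median was 0.18, with 0.16 on replicate 1 and 0.24 on replicate 2. The proteases Ctsh and Lgmn, given above, were the 2 at 1.5-fold. Cathepsin L, Ctsl, stood at 0.64 and 0.45 and the sialidase Neu1 at 0.34 and 0.58. As deposited, the fosBd/d arrays read 1.60 and 1.40 for Lgmn, 1.40 and 1.81 for Ctsl and 1.32 and 0.74 for Neu1. Cathepsin B, Ctsb, read -0.31 and 0.37, and the macrophage marker Cd68 read 0.23 and -0.58, and both were chosen after their values were seen. Genes of glutathione and oxidant defence had 11 of 32 positive and 2 negative, with a median of 0.05. The glutathione transferase Gstp1 was at 0.40 and 0.38, extracellular superoxide dismutase Sod3 at 0.24 and 0.32, ferritin Fth1 at 0.65 and 0.18 and the quinone reductase Nqo1 at 0.45 and 0.17.

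The matrix, adhesion and sterol lists, written with earlier results of these data known, had more genes negative than positive on both arrays. Over all genes 21.9% were negative and 19.5% positive on both. In the basement membrane and interstitial matrix lists, 9 and 15 genes had split signs or a 0. Of 17 basement membrane genes, 7 lay below 0 and 1 above it on both arrays (median -0.23). The laminin chains Lamb1 and Lama1 stood at -1.12 and -0.46, and at -0.54 and -0.28. Fibulin, Fbln2, stood at -0.84 and -0.37 and the collagen IV chain Col4a5 at -0.20 and -1.03. The same laminins read 2.74 and 2.19 for Lamb1, and 2.14 and 2.17 for Lama1, on the fosBd/d arrays. Of 33 interstitial matrix genes, 13 were negative and 5 positive (median -0.10), with Col1a2 at -0.77 and -0.69 beside Col1a1, and collagen XII, Col12a1, at 0.79 and 0.34. Markers of fibroblasts, the cells commonly used as feeders, were measured for 10 of 16, 0 of them positive and 4 negative on both arrays, and had means from -0.85 to 0.60. Those with the lowest means were Tnc, Col1a1 and Col1a2, while decorin, Dcn, read -0.20 and 0.00, and Thy1 1.23 and -0.04. Their part in the matrix values was not tested.

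Integrins and focal adhesion genes, which link cells to that matrix, had 9 of 21 negative and 0 positive on both arrays (median -0.19). Caveolin Cav3 stood at -0.82 and -0.63, zyxin, Zyx, at -0.57 and -0.47, and the integrin chains Itgb3 and Itgal at -0.64 and -0.28, and at -0.26 and -0.54. The other 12 genes had opposite signs, among them the common integrin chain Itgb1 at -0.14 and 0.52. Sterol synthesis and uptake genes had 8 of 13 negative and 0 positive (median -0.21). Ebp was at -0.59 and -0.58, Dhcr7 at -0.23 and -0.51, Fdft1 at -0.31 and -0.24 and Sqle at -0.25 and -0.23, all enzymes of cholesterol synthesis. Actin and contractile genes differed between arrays, with medians of -0.16 and 0.22. In that list Myh3 was the 1 gene at 1.5-fold, and gelsolin, Gsn, was at -0.64 and -0.40, Tagln2 at -0.46 and -0.25 and cardiac troponin I, Tnni3, at 0.36 and 0.16.

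**Figure D3:**
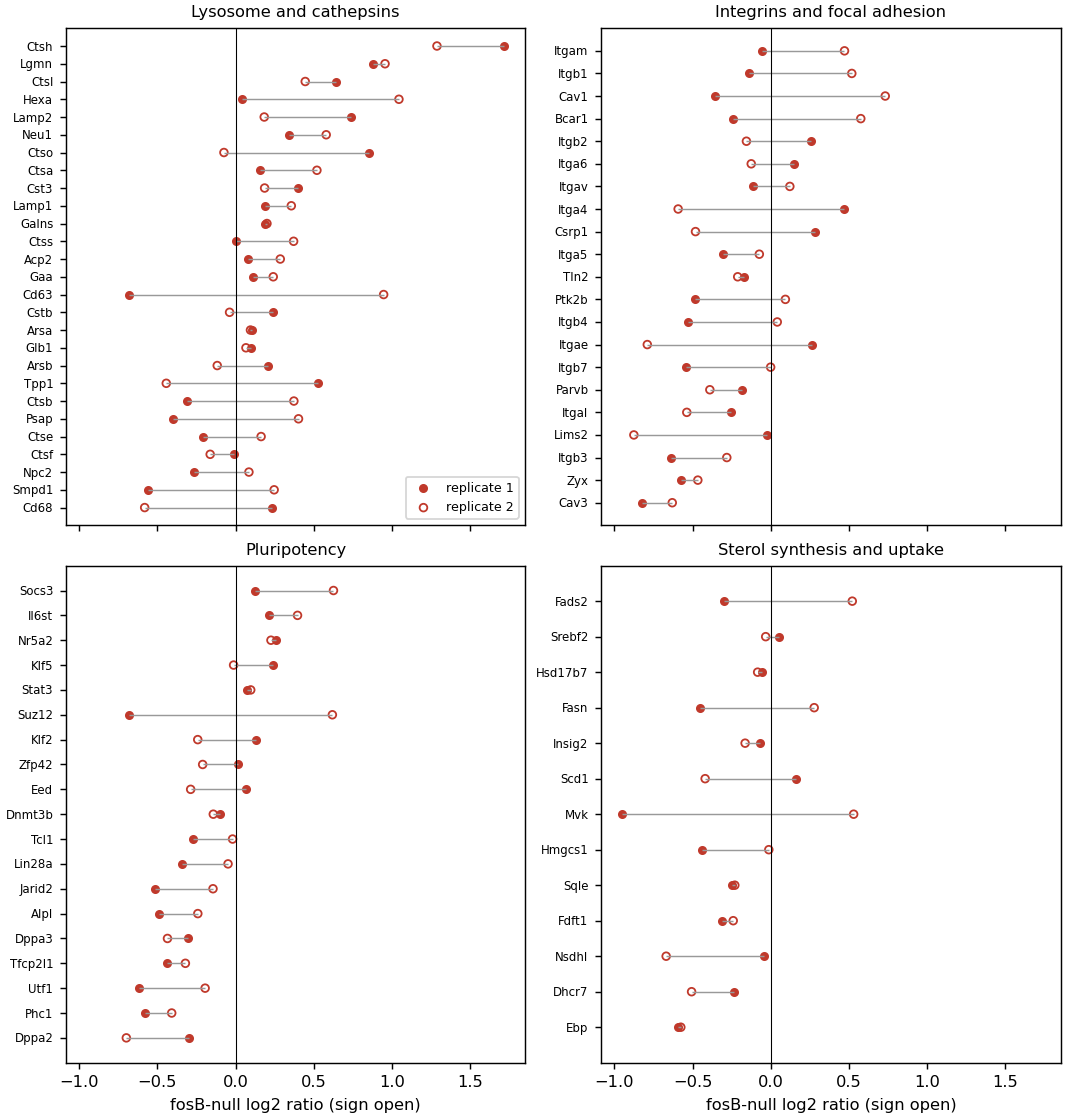
Every measured gene of 4 lists, with filled circles for fosB-null replicate 1 and open circles for replicate 2, on a log2 ratio axis whose sign is open. Lysosomal genes have 15 of 27 with both circles right of 0, integrin and sterol genes have 0 there, and long lines mark genes whose arrays disagree, such as Suz12 (-0.68 and 0.62).

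Pluripotency genes had 10 of 19 (52.6%) negative and 4 (21.1%) positive on both arrays, a median of -0.12. Over all genes 21.9% were negative and 19.5% positive on both. The list was written with earlier results of these data known. The Polycomb subunit Phc1 stood at -0.58 and -0.41, the naive-state factor Tfcp2l1 at -0.44 and -0.32, and the germ line and early embryo genes Dppa2 and Dppa3 at -0.30 and -0.70, and at -0.30 and -0.43. Utf1 was at -0.62 and -0.19, alkaline phosphatase Alpl at -0.49 and -0.24, and Jarid2 at -0.52 and -0.14. None of the 19 was at 1.5-fold on both arrays. Lin28a (-0.34 and -0.05), Tcl1 (-0.27 and -0.02) and the DNA methyltransferase Dnmt3b (-0.10 and -0.14) were nearer 0. The 4 genes positive on both arrays included the receptor chain Il6st (0.21 and 0.40) and Stat3 (0.08 and 0.10). The others were the feedback inhibitor Socs3 (0.12 and 0.63) and the nuclear receptor Nr5a2 (0.26 and 0.23). Zfp42 (0.02 and -0.21), Klf2 (0.13 and -0.24), Klf5 (0.24 and -0.01), Eed (0.06 and -0.29) and Suz12 had opposite signs. Of the shorter list of 23 ES markers, 9 were measured, 6 negative and 1 positive on both arrays.

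Genes of blood clotting and retinoid handling held members on both sides. Here and in the lists that follow, the shares over all genes were 19.5% positive and 21.9% negative on both arrays. Of 25 coagulation genes 9 were negative and 6 positive (median -0.07). Beside Thbd and Thbs1, tissue factor F3, which starts clotting, was at -0.57 and -0.79, and factor VIII, F8, was at 0.37 and 1.93. On the fosBd/d arrays Thbd read 3.28 and 1.86, Thbs1 1.40 and 0.77 and F3 2.86 and 3.02. Retinoid genes had a median of -0.05 with 5 of 20 negative and 4 positive. The receptor Stra6 and the binding protein Crabp1 (-0.62 and -0.68) lay on the negative side, and the carrier Ttr and the retinal dehydrogenase Aldh1a1 (0.30 and 0.72) on the positive side. Stra6 read 1.17 and 0.88 on the fosBd/d arrays, and Crabp1 read -0.43 and -0.40.

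Signalling lists were spread around 0. Among Wnt, Notch and hedgehog genes, 8 of 37 were positive and 10 negative (median -0.03, but 0.08 on replicate 1 and -0.13 on replicate 2). The hedgehog receptor Ptch1 stood at 0.64 and 0.57, the Wnt inhibitor Dkk1 at 1.22 and 0.31, Tcf7l2 at 0.28 and 1.04 and Wnt4 at -0.78 and -0.31. Among TGF-β and BMP genes 4 of 27 were positive and 7 negative (median 0.04, but -0.17 on replicate 1 and -0.002 on replicate 2). The inhibitor Smad6 was at -0.55 and -1.59, the ligand Bmp4 at -1.27 and -0.46, Ltbp4 at -0.59 and -0.31 and follistatin, Fst, at -0.56 and -0.24. Of 49 chemokines, cytokines and receptors, 13 were positive and 8 negative (median 0.10, with 0.00 on replicate 1), with the interleukin receptor Il4ra at 0.80 and 0.65, platelet factor Pf4 at 0.45 and 1.49 and the growth factor Csf1 at -0.57 and -0.55. Interferon and MHC class I genes had 4 of 23 on each side (median 0.07, but -0.09 on replicate 1 and 0.04 on replicate 2). Among them, Irf8 was at 0.33 and 0.29, Ifit1 at 0.26 and 0.67, B2m at 1.05 and 0.25 and Oas1a at -0.39 and -0.26.

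Neuronal genes had 13 of 28 negative and 4 positive (median -0.19), with Crmp1 and Guca1a at 1.5-fold, Sox11 at -0.38 and -0.34 and the receptor Epha2 at 0.34 and 0.36. Other homeobox genes had 7 of 29 positive and 6 negative (median 0.02), with Lhx1 at 0.20 and 0.53, Six4 at 0.82 and 0.18, Gbx2 at 0.81 and 0.17 and Zeb1 at 0.38 and 0.16. Of 12 trophoblast genes, 2 were positive and 0 negative (median 0.10). They were Plac1 and the T-box factor Eomes, at 0.31 and 0.63, and on the fosBd/d arrays, as deposited, they read 1.30 and 1.37, and 0.34 and 0.51. Of the shorter list of 9 trophoblast markers 6 were measured, 2 positive and 0 negative on both arrays.

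Transporters and secreted enzymes were led by genes already named. ABC transporters and P-type ATPases had 10 of 28 negative and 4 positive (median -0.08), with Atp8a2 and Abcb1a at opposite ends, and the exporters Abcc2 at -0.55 and -0.45 and Abcb4 at -0.75 and -0.39. Secreted digestive and reproductive proteins had 5 of 14 negative and 2 positive (median -0.07), the latter Spink1 and lysozyme Lyz2 (0.15 and 0.70). In glycolysis and hypoxia 5 of 13 were negative and 3 positive (median 0.06, but -0.05 on replicate 1 and 0.04 on replicate 2). The glucose transporter Slc2a1 stood at 0.55 and 0.60, against -0.54 and -0.57 for the prolyl hydroxylase P4ha2, -0.60 and -0.28 for hexokinase Hk1 and -0.22 and -0.32 for Pgk1.

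Cell cycle genes had 14 of 51 negative and 8 positive (median -0.09), with the proliferation marker Mki67 at -0.56 and -0.28, Prim1 at -0.27 and -0.33, Rbl1 at -0.18 and -0.65 and thymidylate synthase Tyms at 0.28 and 0.21. Ribosomal protein genes had 5 of 22 positive and 3 negative (median 0.07, but -0.03 on replicate 1 and 0.16 on replicate 2). Among them, Rps26 was at 0.25 and 0.19, Rpl35a at 0.21 and 0.13, Rpl27a at 0.08 and 0.20 and Rpl6 at -0.15 and -0.21. Respiratory chain genes had 7 of 27 positive and 4 negative (median 0.04, but -0.12 on replicate 1 and 0.14 on replicate 2). Among them, Ndufc2 was at 0.80 and 0.24, Ndufc1 at 0.43 and 0.28, Cox7c at 0.28 and 0.45 and Ndufa5 at -0.31 and -0.51. Proteasome and ubiquitin genes had 7 of 42 positive and 6 negative (median -0.01, with -0.08 on replicate 1 and 0.11 on replicate 2). Beside Mgrn1, Siah2 was at 0.35 and 0.22, Ube2e1 at 0.68 and 0.17 and Psmb3 at 0.16 and 0.51.

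Chaperones had medians of -0.19 and 0.16 on the arrays, with 4 of 32 positive and 5 negative. The co-chaperones Dnajb1 (0.55 and 0.59) and Ahsa1 (0.27 and 0.72) and the mitochondrial Hspe1 (0.30 and 0.50) were positive, and the small heat shock protein Cryab was at -0.27 and -0.57. Among p53 targets and apoptosis genes 7 of 27 lay on each side (median -0.04, with -0.01 on replicate 1 and 0.02 on replicate 2). The death receptor Tnfrsf10b was at 0.65 and 0.50, Casp2 at 0.27 and 1.04, Casp8 at -0.44 and -0.84 and Pmaip1 at -0.41 and -0.80. Imprinted genes had 3 of 16 on each side (median -0.01), with Magel2 at -0.26 and -0.64, Gatm at -0.25 and -0.26 and Meg3 at 0.19 and 0.30 beside Phlda2.

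**Figure D4:**
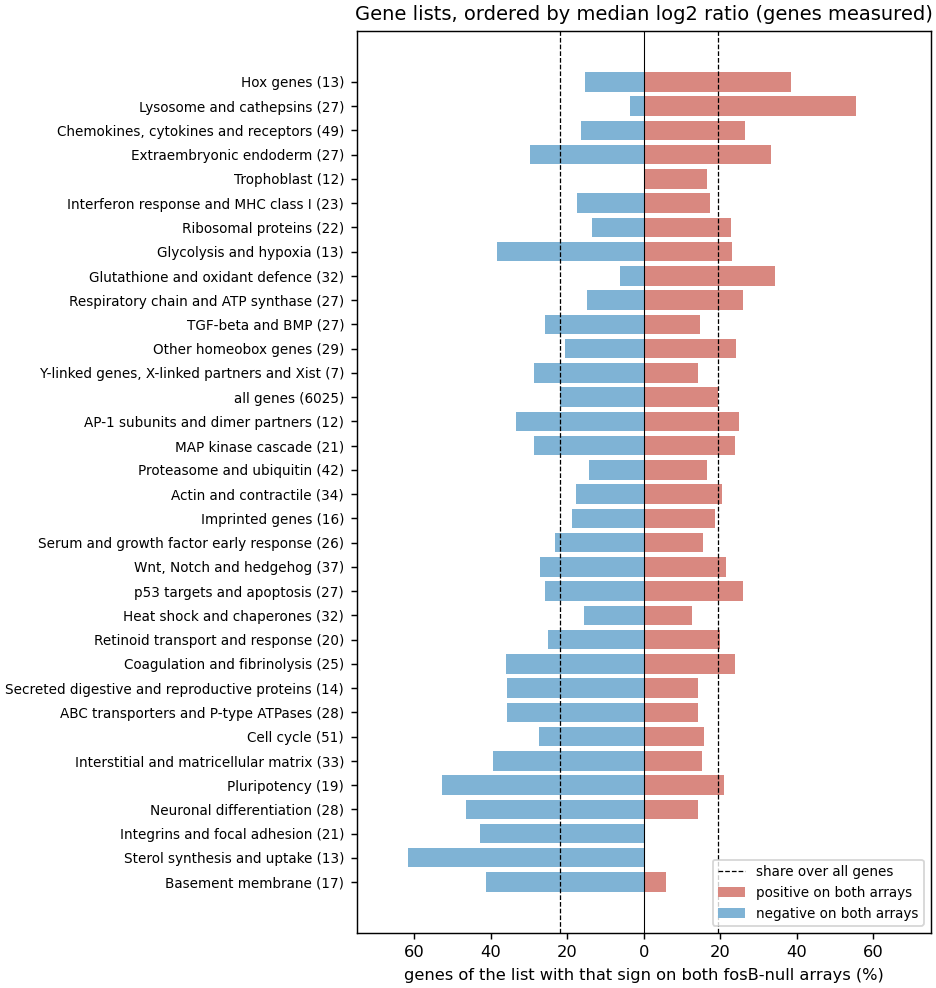
Share of each list's measured genes that were positive (red, right) or negative (blue, left) on both fosB-null arrays, in percent, ordered by median log2 ratio, with the number of genes in brackets. Dashed lines mark the shares over all 6025 genes, 19.5% positive and 21.9% negative; lysosomal genes reach 55.6% on the positive side and sterol genes 61.5% on the negative side.

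In the opposite-sign direction, 6 named probes had the largest differences between the arrays. Arhgef18 read -1.68 and 1.32, and the muscle enolase Eno3 read -1.34 and 1.42. Fam98c read -0.71 and 2.03, AW011738 read -0.89 and 1.85, Wdfy4 read -0.85 and 1.88 and the carboxylesterase Ces1d read -0.84 and 1.84. All 6 were negative on replicate 1 and positive on replicate 2, and all 6 were positive on fosBd/d replicate 1 and negative on fosBd/d replicate 2, at 2.05 and -1.18 for Arhgef18 and 1.73 and -0.69 for Eno3.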

How the data were processed

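The values the authors deposited, 1 for each probe on each array, were read as log10 ratios because the submitters' processing notes name Agilent Feature Extraction, whose log ratio has that base. Its version, and any background correction or dye normalization, were not given in the sources used here. No file settles the base. Values were multiplied by the log2 of 10. Every deposited column was mapped to a labelled array, and medians were 0. Signal and background were not analysed here, and the number of arrays limits the precision.

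Probes were named from a platform annotation of 2007, with symbols updated through a RefSeq gene table (GRCm38.p6). Of 9480 probes, 6566 had 1 gene, 392 several and 2522 none; 6496 matched by identifier and 70 kept the older name. For lists, probes of a gene were averaged.

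The model in limma 3.58.1 (R 4.3.3) used all 4 arrays, fitted 1 term for each mutant and another for dye, coded by the apparent turning, and left 1 residual degree of freedom (prior 1.33). P-values were two-sided and adjusted over 9480 probes (Benjamini-Hochberg). The model was run on simulated data, with recovery required only at a noise set below that fitted to these arrays. Its power at the fitted noise is not given here. The members and lists were chosen with earlier results of these data known. Named genes were all single-gene probes 2-fold the same way on both arrays, the next 12 per side by the smaller absolute value, up to 4 genes per list, the 6 with the largest opposite values, and AP-1, sex-linked, Hox and pluripotency genes whatever their values. Alternatives covered the dye term, log base, scaling, centring, zeros, probe averaging and each array left out.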

Additional observations from a re-analysis of the deposited data

How the results depend on the processing

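In limma 0 probes passed in fosB-null in every setting run, and the alternatives for counts were as follows. The number at an unadjusted p under 0.05 moved from 578 to 179 without the dye term, 47 with the dye coded by the labels, 176 with the fosB-null arrays alone, 106 with the turning of replicate 2 undone, and 46 to 179 with 1 array left out (179 without fosB-null replicate 1, 46 without fosB-null replicate 2 and 176 without either fosBd/d array). Probes 2-fold on both arrays numbered 23, but 0 with the values read as log2, 2 as natural log, 15 per gene, 89 by the mean of the arrays, 142 with the turning undone and 328 to 619 with 1 array left out. At 1.5-fold the 103 became 2, 10, 461 (mean), 388 (undone) and 1311 to 1657, the first 2 being log2 and natural log. The split by sign of the mean, 4812 positive and 4354 negative (50.8% positive), became 6646 and 2834 (70.1%) with the columns shifted up by 0.1, and 3269 and 6211 (34.5%) with a shift down.

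Of the 33 lists, 18 had a median of the same sign on each array alone, and 17 in all settings run. Of the 9 with a median of at least 0.1 in size, 8 had the same sign on each array; chemokines, at 0.00 on replicate 1, were the other. Of 210 named values, 11 changed sign without replicate 1, 11 without replicate 2 and 1 with scaling. Values named by size, or as leading genes of a list, had one sign on both arrays by choice. Leaving an array out could not change their sign, so these numbers do not measure stability. Over all probes, 5201 (54.9%) had opposite signs. A 300-base promoter window, chosen after seeing the data, gave the same 2 genes. No paired analysis was possible because the labels give no replicate numbers; those used here follow accession order. A term for that number would be the same fit as the dye coded by the labels.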

Other observations

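These genes were at 1.5-fold on both fosB-null arrays but outside the naming rule, and were chosen after their values were seen. On the positive side were Mttp, which loads lipid onto apolipoprotein B, at 0.74 and 0.64, the carbonic anhydrase Car4 at 0.66 and 1.17, and Habp2, a plasma protease, at 1.05 and 0.60. On the negative side stood Clu, clusterin, a secreted chaperone, at -0.65 and -0.60, the muscle and stretch-response gene Ankrd1 at -0.90 and -0.65, and Rhox6, an X-linked homeobox gene of placenta and germ line, at -0.80 and -0.68. Ly6f, of the same surface protein family as Ly6c1 and also on chromosome 15, stood at -0.78 and -0.74, and Slc27a5, which activates bile acids, at -0.69 and -0.75.

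Chromosomes were tallied, a step added after seeing the data. Over the 20 chromosomes with enough genes (158 to 518 each), medians ran from -0.03 (chromosome 15) to 0.05 (chromosome 13). On the X chromosome, with 191 genes, 4 were at 1.5-fold on the positive side and 1 on the negative side. Over all 6025 genes, 35 (0.581%) were on the positive side and 34 (0.564%) on the negative side. Chromosomes 6, 7, 11 and 18 had 3 each on the positive side, with 2, 4, 1 and 0 on the negative side. Among 502 genes with several probes, 292 had probes whose means agreed in sign. Of the 77 probes at 1.5-fold, 9 belonged to genes with another probe, whose mean had the same sign in 7 and was at 1.5-fold on both arrays in 0.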
